A study of Homo sapiens with 5 samples.

Results

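G1 cyclins, cyclin-dependent kinases (CDKs) and their inhibitors decide whether a cell leaves G1, and 10 genes of this machinery were followed here in single cells: CCND1, CCND2, CCND3, CDK4, CDK6, CDKN1B, CDKN1C, CDKN2C, RB1 and MYC. They were taken by symbol from all 5 count tables, and all 10 are among the 15022 human genes seen in at least 10 wells. The cells were SW480, an established human colorectal cancer line transfected with GFP, grown as tumors in zebrafish larvae and taken at 1 or 4 days post injection (dpi). No group carried a drug or a gene edit, and the groups differ by time and, with it, by tumors and plates. In SORT-seq, cells are sorted by FACS into 384 wells of a plate, and each RNA molecule is counted once through a unique molecular identifier (UMI). Libraries 6, 7 and 8 were plates of 1 dpi, and libraries 10 and 11 were plates of 4 dpi. The tumors of a time point were pooled before sorting, and the labels do not say whether its plates came from separate pools. If they share a pool, every p-value, SD and standard error given here covers the spread between plates of that pool, which may be technical. All 384 well barcodes are shared by the 5 libraries through the plate design, so a barcode identifies a cell only within its library.

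Depth on human genes was 7632953 UMIs for library 6, 5556237 for library 7, 4922188 for library 8, 4678213 for library 10 and 4487175 for library 11. A well counted as a cell when it showed over 2000 genes and a mitochondrial share of UMIs below 25%, which gave 228, 142 and 163 cells at 1 dpi and 132 and 161 at 4 dpi, 826 in all. A level is given as UMIs of the gene per 1000000 human UMIs (CPM) of the cells summed in a library. All 7 epithelial markers looked for were present, with a summed level from 4788 CPM in library 6 to 5892 in library 8 and KRT8 the most abundant. Of 7 leukocyte markers, PTPRC and CD3E were not among the genes listed in all libraries. The other 5 summed to 19.7, 22.3 and 16.3 CPM at 1 dpi and 7.32 and 6.07 at 4 dpi. ITGAM was the most abundant, except in library 10, where CD68 and LYZ were level at 2.27 CPM. Of 4 fibroblast markers, COL1A1 alone was listed in all libraries, at 1.47, 4.09 and 2.72 CPM at 1 dpi and 16.7 and 7.12 at 4 dpi. Endothelial markers (2 of 3 listed in all libraries, PECAM1 or VWF the most abundant) summed to between 1.25 and 2.00 CPM. The sums of the leukocyte genes and of COL1A1 differed between the time points without overlap, and their part in the time differences was not tested.

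As background, D cyclins bind CDK4 or CDK6, and the active kinases phosphorylate the retinoblastoma protein RB1, which then frees E2F factors to switch on genes for DNA replication. Inhibitors of the INK4 family (here CDKN2C) bind CDK4 and CDK6 themselves, whereas inhibitors of the CIP/KIP family (CDKN1B and CDKN1C) bind cyclin-CDK complexes and also restrain CDK2. In colorectal cancer, loss of APC activates Wnt signaling, and MYC and CCND1 are among the genes usually named as Wnt targets in the intestine.

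Each cell was placed by its UMIs of TOP2A, a topoisomerase made from S phase to mitosis. This sets cells with little sign of the late cell cycle apart from cells in it. Of the 826 cells, 536 had 0 TOP2A UMIs, 165 had 1 or 2, and 125 had 3 or more. By library the last class held 24, 23 and 12 cells at 1 dpi and 32 and 34 at 4 dpi. TOP2A chose the classes, and its difference between them is not a result; near the threshold, 47 cells had 2 UMIs and 24 had 3. Cells with 3 or more were also deeper, with a median of 46458 UMIs against 22566 in cells with 0. Between these classes, within libraries, all 20 genes of a G2 and mitosis list were higher (median log2 change 3.66, all genes -0.02; CENPF 4.22, CCNA2 4.45), and so were all 19 tested genes of an S phase list (median 1.21; RRM2 2.68). TYMS, also on the S phase list, was not among the genes listed in all libraries. A count of 0 TOP2A UMIs does not by itself place a cell outside the late cell cycle. Median depth in this class was 25519, 32246 and 21927 UMIs at 1 dpi and 21977.5 and 15865 at 4 dpi. MKI67, on the G2 and mitosis list, had 8.97, 11.9 and 8.44 CPM there at 1 dpi and 11.2 and 25.9 at 4 dpi. Library 11 stood apart in both. Their part in the time differences of this class was not tested beyond the alternatives given with the genes.

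The upper class was not alike at the time points. Its TOP2A level was 208, 152 and 278 CPM at 1 dpi and 350 and 511 at 4 dpi, and its level of MKI67, a marker of cycling cells, was 185, 143 and 149 CPM and then 282 and 373. Its median mitochondrial share per cell was 11.6%, 10.9% and 10.0% at 1 dpi and 15.3% and 14.2% at 4 dpi, while its median depth was 53481, 53075 and 44998.5 UMIs and then 39510.5 and 31126.5. All of these separate the time points without overlap, and their part in the time differences within this class was not tested beyond a lower mitochondrial maximum, thinned cells and a narrower range of depth, which are given with the genes. The class made up 10.5%, 16.2% and 7.36% of the cells at 1 dpi and 24.2% and 21.1% at 4 dpi (95% exact intervals from 3.86% to 12.5% in library 8 and from 17.2% to 32.5% in library 10, counting error only). The mean share was 11.4% ± 4.48 (SD, n = 3) against 22.7% ± 2.21 (SD, n = 2), a difference of 11.3 points with a two-sided exact permutation p of 0.2. With 10 possible assignments of the libraries the smallest p is 0.1, so this test cannot pass 0.05. On the flow cell that held libraries 6, 7 and 10 and on that with libraries 8 and 11, the 4 dpi library had the higher share. With a mitochondrial maximum of 15% library 7 (18.3%) was above library 10 (17.5%), the difference was 4.78 points, and the means were 12.7% and 17.5% (exact p = 0.4). With cells thinned to 5000 UMIs and at least 1 TOP2A UMI the shares were 9.73%, 12.1% and 6.88% against 22.3% and 22.6% (difference 12.9 points, exact p = 0.1), and with at least 5 TOP2A UMIs or with MKI67 the differences were 7.28 and 7.88 points (exact p = 0.2 for both).

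Over all cells, 5 of the 10 genes changed between 1 and 4 dpi at an adjusted p under 0.05 (edgeR's quasi-likelihood test on the library sums): CDKN1C, CDKN2C, CDK6 and CDK4 rose and MYC fell. Of all 12646 genes tested, 27.6% passed the same test, so a count of 5 in 10 is set against a high background. The median log2 change of the 10 genes was 0.40, against 0.00 over all genes. Among cells with 0 TOP2A UMIs, CDKN1C and CDK4 rose and MYC fell, 3 of 10 beside 16.3% of all genes. Among cells with 3 or more, CDK6, CDKN1C, CDKN2C and CDK4 rose and MYC fell, 5 of 10 beside 9.05% of all genes. The medians of the 10 genes were 0.24 and 0.39 in these classes, against 0.01 and -0.01 over all genes. The 3 comparisons use the same libraries, and their calls are not independent of each other. The 10 genes were chosen with earlier results of these data known, so these counts are no test of G1 genes as a set.

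**Figure D1:**
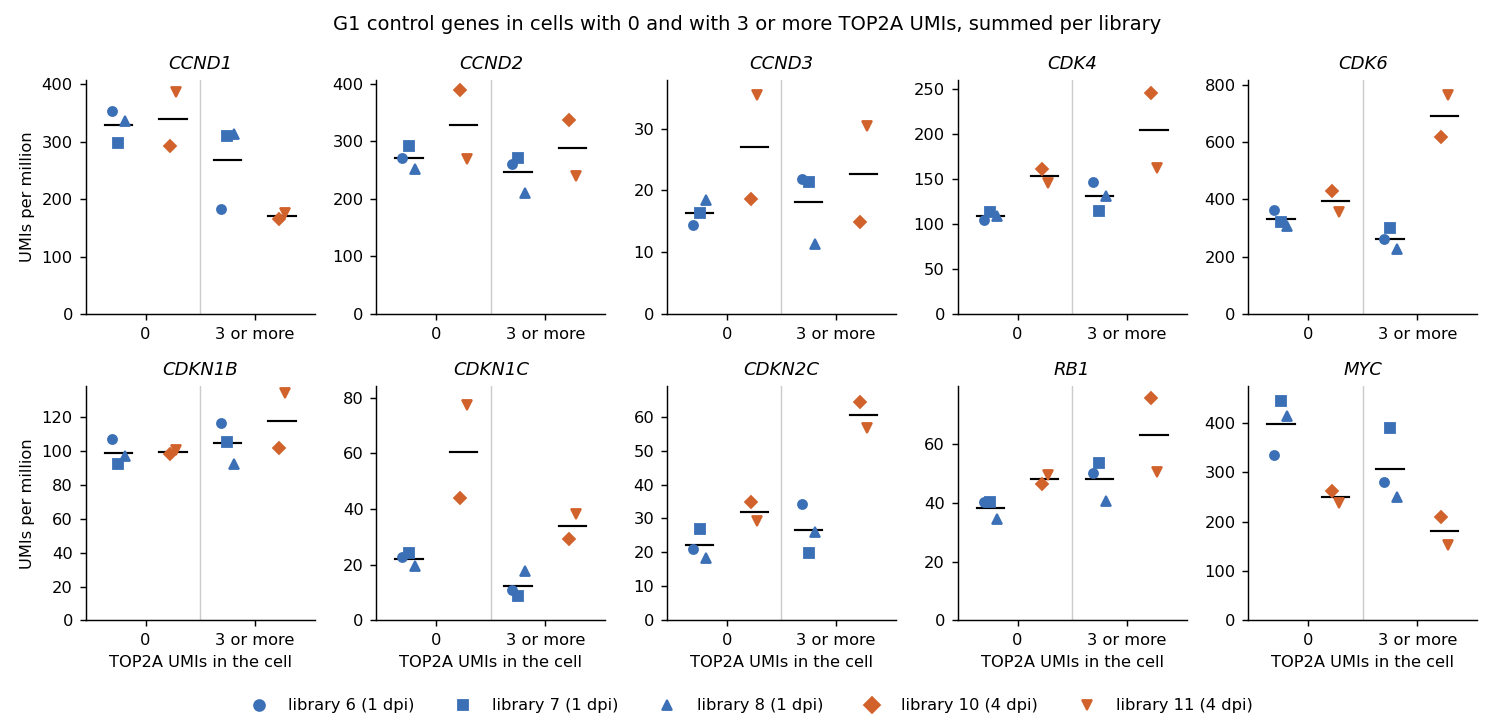
Level of each of the 10 genes (CPM, linear axis from 0) in the cells of each library with 0 and with 3 or more TOP2A UMIs; points are libraries (3 of 1 dpi, 2 of 4 dpi) and bars are means. CDK6 sits at 226 to 299 CPM in the upper class at 1 dpi and at 619 and 764 at 4 dpi, whereas its points overlap in the cells with 0.

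Among the D cyclins, which activate CDK4 and CDK6, CCND1 had 303, 290 and 328 CPM at 1 dpi and 257 and 316 at 4 dpi over all cells. The time points overlapped, and the log2 change was -0.12 (SE 0.10, adjusted p = 0.386). CCND1 lies at chr11:69641156-69654474 on the plus strand (hg38). Split by class, its level was 353, 297 and 337 CPM against 293 and 386 in cells with 0 TOP2A UMIs, and 182, 310 and 314 against 165 and 175 in cells with 3 or more. Library 6 thus stood apart from libraries 7 and 8 in the upper class and lay beside the libraries of 4 dpi. The time difference there was -0.55 on the log2 scale and did not pass the test (adjusted p = 0.0941). Without library 6 it was -0.76 and passed, as it did with no filter on low counts (-0.56). Over the 15 alternatives the value ran from -0.81 to -0.25 and the adjusted p from 0.0112 to 0.658.

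CCND2, another D cyclin (chr12:4269771-4305353, plus strand), had 272, 278 and 244 CPM at 1 dpi and 371 and 274 at 4 dpi. Library 10 was the highest and library 11 lay among those of 1 dpi. Its log2 change of 0.26 did not pass the test (adjusted p = 0.114). With the flow cell as a term it passed at 0.30. Without library 11 it was 0.46, and over the alternatives it ran from 0.015 to 0.46. CCND3 (chr6:41934934-42050357, minus strand) was the least counted of the D cyclins, with 17.2, 19.9 and 15.5 CPM and then 17.9 and 32.5. Library 11 was above all others, and the log2 change was 0.49 (adjusted p = 0.108), with -0.05 and 1.07 on the separate flow cells. It passed with a mitochondrial maximum of 15% (0.71) and was 0.85 without library 10. The alternatives gave values from 0.010 to 0.85. Over their alternatives the adjusted p of CCND2 ranged from 0.00814 to 0.944 and that of CCND3 from 0.00692 to 0.982. The value of CCND3 in cells with 0 TOP2A UMIs was 0.66 (adjusted p = 0.0879). It passed with the maximum of 15% (0.92) and with classes made by MKI67 (1.04), and was 1.03 without library 10. Over the alternatives it ran from 0.14 to 1.04 (adjusted p from 0.0167 to 0.834).

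Since a molecule is counted once, UMIs of the D cyclins can be set side by side, with the reserve that capture may differ between their transcripts. CCND1 gave 51.2%, 49.3% and 55.8% of the D cyclin UMIs of all cells at 1 dpi and 39.9% and 50.7% at 4 dpi. CCND3 gave between 2.64% and 5.22%, and CCND2 the rest, from 41.6% to 57.4%. In cells with 3 or more TOP2A UMIs at 4 dpi CCND2 gave the larger share, 65.2% in library 10 (95% exact interval 61.5% to 68.7%) and 53.9% in library 11 (49.5% to 58.3%), where the intervals cover counting error only and not the spread between cells or libraries. At 1 dpi its share there ran from 39.2% in library 8 to 56.04% in library 6, so library 11 lay within the range of 1 dpi.

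CDK6, a catalytic partner of the D cyclins, had 329, 323 and 286 CPM over all cells at 1 dpi and 501 and 544 at 4 dpi. Both libraries of 4 dpi exceeded all 3 of 1 dpi, and the log2 change was 0.71 (SE 0.09, adjusted p = 6.6e-05), with 0.62 and 0.93 on the separate flow cells. The gene lies at chr7:92604921-92836573 on the minus strand. Its level in cells with 0 TOP2A UMIs was 364, 322 and 306 CPM against 429 and 358, values that overlap, with a log2 change of 0.19 (SE 0.12, adjusted p = 0.326). In cells with 3 or more it was 261, 299 and 226 CPM against 619 and 764. The time points lay far apart, with a mean 2.64 times as high at 4 dpi, and the log2 change was 1.48 (SE 0.16, adjusted p = 5.6e-06), the 5th smallest p of 10070 genes, with 1.14 and 1.76 on the separate flow cells. CDK6 passed this test under all 15 alternatives, with values from 1.34 to 1.67.

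Across finer classes the CDK6 level of 4 dpi climbed with TOP2A and that of 1 dpi did not. Cells with 1 or 2 TOP2A UMIs had 300, 353 and 259 CPM at 1 dpi and 469 and 632 at 4 dpi. With 3 to 9 UMIs the values were 309, 345 and 305 and then 519 and 640. With 10 or more they were 219, 229 and 101 (from 11, 9 and 5 cells) and then 722 and 866 (13 and 16 cells). The time points were apart in each of these finer classes and overlapped in the cells with 0. The difference was spread over cells: in the class with 3 or more, the median cell had 249, 249 and 182 CPM of CDK6 at 1 dpi and 449 and 631 at 4 dpi, and the cell with the most CDK6 UMIs held 13.3% and 11.6% of those of libraries 10 and 11. With every cell thinned to 5000 UMIs, the share of these cells with at least 1 CDK6 UMI was 66.7%, 73.9% and 58.3% at 1 dpi and 93.8% and 88.2% at 4 dpi.

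**Figure D2:**
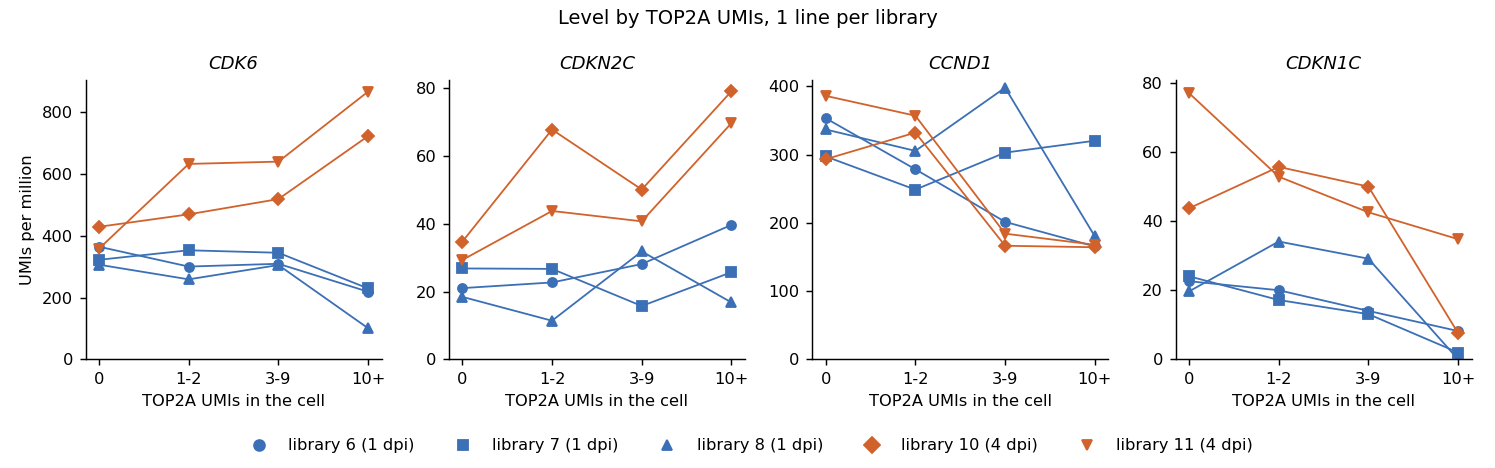
Level of CDK6, CDKN2C, CCND1 and CDKN1C (CPM, linear axis from 0) in cells with 0, 1 to 2, 3 to 9 and 10 or more TOP2A UMIs, each line a library. In cells with 10 or more, CDK6 is at 722 and 866 CPM in the libraries of 4 dpi and at 101 to 229 in those of 1 dpi.

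Whether the time difference itself differs between the classes was tested as an interaction over the 10 sums of library and class, with the library as a block. Of the 10 genes 1 passed, CDK6, beside 0.0725% of all genes (8 of 11038), and it had the smallest p of all (log2 difference 1.32, SE 0.20, adjusted p = 0.00894). Seen within libraries, the level in cells with 3 or more TOP2A UMIs over that in cells with 0 was -0.48, -0.11 and -0.44 on the log2 scale at 1 dpi and 0.53 and 1.09 at 4 dpi, lower in 3 of 3 and higher in 2 of 2. The call was lost with a mitochondrial maximum of 15% (1.40), with cells of 15000 to 60000 UMIs alone (1.15) and without library 11 (1.04), and over 14 alternatives the value ranged from 1.04 to 1.58 and the adjusted p from 6.2e-07 to 0.31. Of the other 7 genes that passed, named here after their values were seen, 4 are encoded by the mitochondrial genome (MT-CO2 0.76, MT-ATP6 0.73, MT-CO3 0.69 and MT-ND4 0.63), beside the mitochondrial shares given for the upper class. The other 3 were LINC01089 (2.93), SIN3B (-1.56) and KIF1A (-4.51).

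CDK4, the other catalytic partner of the D cyclins, had 120, 113 and 116 CPM at 1 dpi and 192 and 153 at 4 dpi over all cells, with no overlap. It rose by 0.54 on the log2 scale (SE 0.11, adjusted p = 0.00179), with 0.72 and 0.40 on the separate flow cells. The level in cells with 0 TOP2A UMIs was 104, 113 and 109 CPM against 161 and 145, and in cells with 3 or more 147, 114 and 132 against 246 and 162. The log2 changes were 0.43 (adjusted p = 0.0284) and 0.74 (adjusted p = 0.0239), and their difference did not pass the interaction test (0.30, adjusted p = 0.855). On the separate flow cells the changes were 0.57 and 0.41 in cells with 0, and 0.92 and 0.30 in the upper class. Both calls were lost under several alternatives: in cells with 0 the change was no longer called without library 6 (0.39), 8 (0.43), 10 (0.33) or 11 (0.51), and in the upper class without library 7 (0.64), 8 (0.73) or 10 (0.38). They were lost too with a mitochondrial maximum of 15% (0.38 and 0.54), thinned cells (0.46 and 0.65) and cells of 15000 to 60000 UMIs (0.48 and 0.43), and in cells with 0 with DESeq2 (0.43), with adjusted p up to 0.223 and 0.531 and down to 0.0289 and 0.00678 over the alternatives. CDK6 gave 73.4%, 74.1% and 71.2% of the UMIs of this pair of kinases at 1 dpi and 72.3% and 78.01% at 4 dpi over all cells. In the upper class its share was 64.04%, 72.3% and 63.2% and then 71.5% and 82.5%, which overlap.

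Promoter sequences from RefSeq (GRCh38.p14, windows of 300 bases around a transcript start) were matched by symbol for 6 of the 10 genes, with 11 promoters: CDK6 2, CDK4 1, CCND3 3, CDKN1B 1, CDKN2C 3 and RB1 1. CCND1, CCND2, CDKN1C and MYC had no entry, and the windows of CDK4, CCND3, CDKN1B and RB1 do not cover the outer start of the gene in GENCODE. Both strands were searched for the E-box CACGTG, the letters known for binding MYC with MAX, for the E2F motif as TTCCCGC or TTGGCGC, for the TCF/LEF motif CTTTGA and for the cell cycle element CHR as TTTGAA. Of 35116 promoters, 7.26% hold the E-box, 9.23% the E2F letters, 12.9% the TCF/LEF letters and 15.2% the CHR letters. Among the 11 promoters, 4 hold an E-box, 1 holds E2F letters and 0 hold TCF/LEF or CHR letters, and no matches overlap. Shown are the promoters of CDK6, CDK4 and CDKN2C, which rose together in cells with 3 or more TOP2A UMIs, so far as they hold a match, with the match in capitals: CDK6 at chr7:92836524-92836823 (minus strand, 1 E-box), CDK4 at chr12:57752261-57752560 (minus strand, 3 E-boxes), and CDKN2C at chr1:50960495-50960794 (1 E-box), chr1:50968456-50968755 (2 E2F matches) and chr1:50969995-50970294 (1 E-box), all on the plus strand. A match is a description of letters in a window and no sign that a factor binds there.
CDK6: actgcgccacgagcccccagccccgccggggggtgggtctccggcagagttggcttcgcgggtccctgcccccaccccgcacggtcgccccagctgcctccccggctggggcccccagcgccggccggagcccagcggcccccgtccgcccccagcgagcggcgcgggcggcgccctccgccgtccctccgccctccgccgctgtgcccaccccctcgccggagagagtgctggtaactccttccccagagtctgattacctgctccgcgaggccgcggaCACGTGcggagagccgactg
CDK4: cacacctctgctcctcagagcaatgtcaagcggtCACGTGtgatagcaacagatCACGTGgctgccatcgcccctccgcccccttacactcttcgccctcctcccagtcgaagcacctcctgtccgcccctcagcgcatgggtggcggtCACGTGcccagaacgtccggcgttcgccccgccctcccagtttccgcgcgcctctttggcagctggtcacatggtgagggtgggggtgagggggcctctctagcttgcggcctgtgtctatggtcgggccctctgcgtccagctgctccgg
CDKN2C start 1: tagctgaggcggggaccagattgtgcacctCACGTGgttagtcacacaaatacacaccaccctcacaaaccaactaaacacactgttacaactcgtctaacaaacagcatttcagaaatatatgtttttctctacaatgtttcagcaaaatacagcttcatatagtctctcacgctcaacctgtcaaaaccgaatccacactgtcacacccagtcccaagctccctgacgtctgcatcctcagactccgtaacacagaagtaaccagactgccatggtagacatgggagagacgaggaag
CDKN2C start 2: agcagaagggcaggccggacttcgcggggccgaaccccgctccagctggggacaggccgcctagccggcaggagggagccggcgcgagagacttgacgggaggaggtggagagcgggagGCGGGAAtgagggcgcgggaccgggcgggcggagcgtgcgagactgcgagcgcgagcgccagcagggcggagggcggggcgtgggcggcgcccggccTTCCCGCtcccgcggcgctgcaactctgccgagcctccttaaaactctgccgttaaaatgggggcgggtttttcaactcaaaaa
CDKN2C start 3: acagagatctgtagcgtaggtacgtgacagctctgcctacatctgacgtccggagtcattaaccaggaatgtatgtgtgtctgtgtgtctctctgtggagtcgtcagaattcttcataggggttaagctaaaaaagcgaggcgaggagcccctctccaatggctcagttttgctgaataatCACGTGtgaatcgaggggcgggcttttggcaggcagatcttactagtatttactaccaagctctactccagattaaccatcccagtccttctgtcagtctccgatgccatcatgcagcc

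Among the inhibitors, CDKN2C (p18, an INK4 protein that binds CDK4 and CDK6; chr1:50960745-50974634, plus strand) had 23.9, 25.1 and 17.99 CPM at 1 dpi and 50.99 and 40.9 at 4 dpi over all cells. The time points were apart, and it rose by 1.01 on the log2 scale (SE 0.17, adjusted p = 3.9e-04), with 1.06 and 1.19 on the separate flow cells. In cells with 3 or more TOP2A UMIs the level was 34.3, 19.7 and 26.0 CPM against 64.4 and 56.7, again apart, with a log2 change of 1.26 (SE 0.27, adjusted p = 0.00515). Cells with 0 had 21.01, 26.8 and 18.4 CPM against 34.7 and 29.3, with a change of 0.48 that did not pass (adjusted p = 0.145); over 14 alternatives that could alter it the value ran from 0.19 to 0.83 and passed in 1, with classes made by MKI67 (0.83, adjusted p = 0.0151). The difference between the classes was 0.82 on the log2 scale and did not pass the interaction test either (unadjusted p = 0.0335, adjusted p = 0.648). The call in the upper class was lost without library 7 (1.05) or 10 (1.15), with a mitochondrial maximum of 15% (1.10) and with cells of 15000 to 60000 UMIs (1.03), and CDKN2C was too rarely counted there to be tested in thinned cells.

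CDKN1C (p57, a CIP/KIP inhibitor; chr11:2883213-2885775, minus strand) had the largest time change of the 10 genes in all 3 comparisons. Its level over all cells was 19.9, 18.97 and 22.4 CPM at 1 dpi and 41.1 and 59.9 at 4 dpi. Libraries of 4 dpi were above all of 1 dpi, and the log2 change was 1.28 (SE 0.16, adjusted p = 5.5e-05), with 1.08 and 1.42 on the separate flow cells. Cells with 0 TOP2A UMIs had 22.7, 24.1 and 19.7 CPM against 43.8 and 77.2, a change of 1.38 (SE 0.21, adjusted p = 1.4e-04) that passed under all 14 alternatives that could alter this class. In the upper class it had 10.9, 8.67 and 17.9 CPM against 29.2 and 38.4, a change of 1.61 (SE 0.36, adjusted p = 0.00651). That call was lost without library 7 (1.40) or 11 (1.42), with a mitochondrial maximum of 15% (1.57) and with cells of 15000 to 60000 UMIs (0.99). The difference between the classes, 0.30, did not pass the interaction test (adjusted p = 0.922). Within each time point CDKN1C was sparse: the median cell with 0 TOP2A UMIs had 0 CPM at both times, while the upper quartile was 17.5 CPM at 1 dpi and 78.6 at 4 dpi.

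CDKN1B (p27, the other CIP/KIP inhibitor followed; chr12:12685498-12722369, plus strand) had 106, 94.7 and 93.9 CPM at 1 dpi and 106 and 107 at 4 dpi. Libraries of both time points overlapped, and its log2 change was 0.09 (adjusted p = 0.551). In neither class did its change pass, with -0.05 in cells with 0 TOP2A UMIs and 0.24 in cells with 3 or more. RB1, the main target of the D-cyclin kinases (chr13:48303744-48599436, plus strand), had 43.2, 44.6 and 35.6 CPM at 1 dpi and 56.04 and 48.03 at 4 dpi. These do not overlap, but the log2 change of 0.31 did not pass the test (adjusted p = 0.108). With the flow cell as a term it passed at 0.36, and with thinned cells it turned to -0.06 (range of adjusted p from 0.0354 to 0.916).

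MYC, a transcription factor whose known targets include CCND2 and CDK4, was the only member called lower at 4 dpi. Over all cells it had 324, 418 and 378 CPM at 1 dpi and 248 and 222 at 4 dpi. The time points did not overlap, and the log2 change was -0.69 (SE 0.11, adjusted p = 4.0e-04), with -0.58 and -0.77 on the separate flow cells. In cells with 0 TOP2A UMIs its level was 334, 445 and 413 CPM against 262 and 237, and in cells with 3 or more 280, 390 and 250 against 209 and 153. The log2 changes were -0.73 (adjusted p = 0.00117) and -0.67 (adjusted p = 0.0389), and their difference of 0.08 did not pass the interaction test (adjusted p = 0.969). The first passed under all 14 alternatives that could alter it. The other was lost without library 7 (-0.46) or 11 (-0.46), with DESeq2 (-0.67), a mitochondrial maximum of 15% (-0.76), thinned cells (-0.60) and cells of 15000 to 60000 UMIs (-0.70), with adjusted p from 0.00882 to 0.326.

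**Figure D3:**
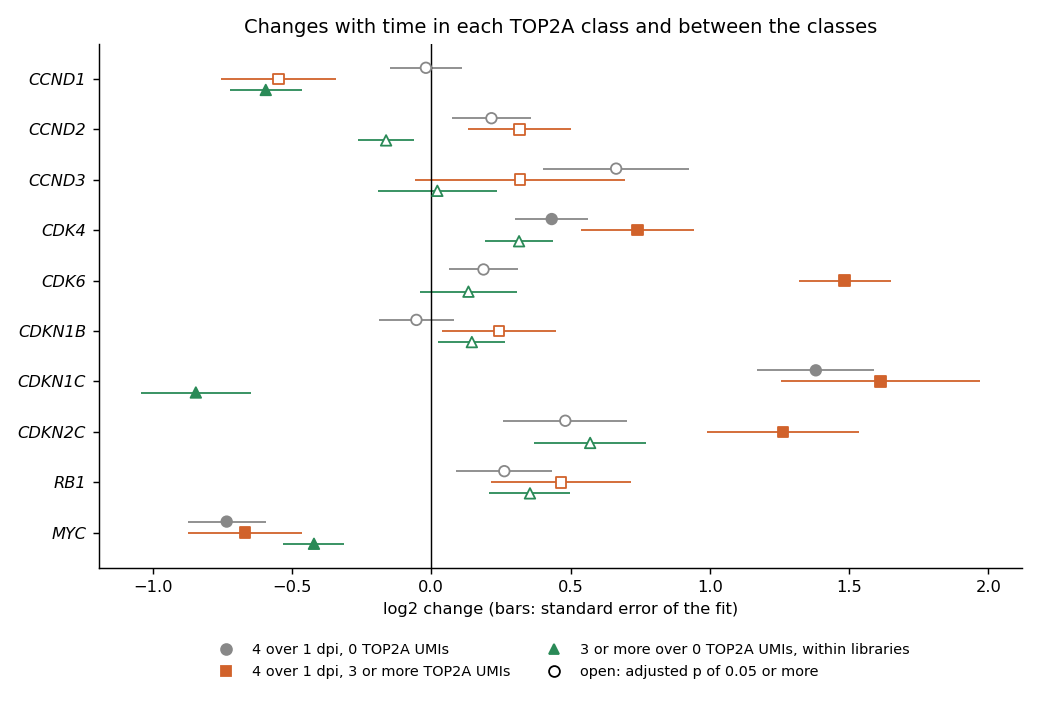
Log2 change of each gene between 4 and 1 dpi in cells with 0 and with 3 or more TOP2A UMIs, and between these classes within libraries. Bars are standard errors derived from edgeR's test statistic, and open symbols did not pass the test. CDK6 shows 0.19 and 1.48 for time in the classes, and CCND1, CDKN1C and MYC lie at -0.59, -0.85 and -0.42 between the classes; scaled to ERCC spike-ins instead, CCND1 and MYC turn positive between the classes, as the median of all genes moves to 0.79.

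Between the classes within libraries, 3 of the 10 genes differed, beside 12.4% of all 10127 genes tested, and all 3 were lower in cells with 3 or more TOP2A UMIs: CDKN1C, CCND1 and MYC. This count depends on the scaling: with ERCC spike-ins as the reference, where the median of all genes is 0.79, 8 of 10 were called higher and 0 lower, near the 83.6% of all genes called then (8442 higher and 25 lower). The median over the 10 genes was 0.08, against -0.02 over all genes. CDKN1C was lower in 5 of 5 libraries, at a mean of 21.004 CPM ± 12.6 against 37.5 ± 24.2 (SD, n = 5), with a log2 change of -0.85 (SE 0.20, edgeR adjusted p = 0.00468). The SDs with n = 5 take both time points together, so they include differences with time and do not measure the spread of the class difference. In cells with 0 TOP2A UMIs the mean of CDKN1C was 22.1 CPM at 1 dpi and 60.5 at 4 dpi. CCND1 was lower in 4 of 5 libraries, at 229 CPM ± 75.5 against 333 ± 39.1 (SD, n = 5), with -0.59 (SE 0.13, edgeR adjusted p = 0.00247). By library its class ratio was -0.96, 0.06, -0.10, -0.83 and -1.14 on the log2 scale, so libraries 7 and 8 showed little of the difference. MYC was lower in 5 of 5 libraries, at 256 CPM ± 88.3 against 338 ± 90.9 (SD, n = 5), with -0.42 (SE 0.11, edgeR adjusted p = 0.0109). In cells with 10 or more TOP2A UMIs CDKN1C was at 8.20, 1.98 and 0 CPM at 1 dpi and 7.60 and 34.8 at 4 dpi, from 6, 1, 0, 5 and 22 UMIs.

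The other members did not pass between the classes, though all 7 did, as higher, when scaled to ERCC, as 83.6% of all genes did (CDKN2C 1.36, RB1 1.15, CDK4 1.12, CDKN1B 0.95, CDK6 0.94, CCND3 0.82 and CCND2 0.65). CDKN2C was at 40.2 CPM ± 19.4 in the upper class against 26.1 ± 6.51 (SD, n = 5), with a log2 change of 0.57 (edgeR adjusted p = 0.0655) that also passed without library 7 (0.82), with at least 5 TOP2A UMIs (0.73), with classes made by MKI67 (0.54), with cells of 15000 to 60000 UMIs (0.82) and with no filter on low counts (0.55). CDK4 was higher in 5 of 5 libraries by 0.31 (edgeR adjusted p = 0.097), and also passed without library 7 (0.42), with classes made by MKI67 (0.49) and with cells of 15000 to 60000 UMIs (0.55). RB1 was also higher in 5 of 5 libraries, by 0.35, without passing in the main fit (edgeR adjusted p = 0.122). CDK6, lower in 3 libraries and higher in 2, had a change of 0.13 over both time points, and also passed with thinned cells (0.54). CCND2 (-0.16, lower in 5 of 5 libraries), CDKN1B (0.15) and CCND3 (0.02) completed the list. Over their alternatives, ERCC scaling among them, the adjusted p ran from 8.9e-07 to 0.274 for CDKN2C, from 1.5e-08 to 0.484 for CDK4 and from 3.0e-06 to 0.996 for CDK6.

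These changes are relative to all UMIs of a sum. Scaled to the ERCC spike-ins added to each well, the median of all genes moved to 0.79 (ERCC UMIs per 1000 human UMIs were 14.5 in cells with 0 TOP2A UMIs and 8.18 in cells with 3 or more), and the values of CCND1, CCND2 and MYC turned to 0.22, 0.65 and 0.39, with CCND2 (adjusted p = 1.2e-05) and MYC (adjusted p = 0.00348) now called higher, while that of CDKN1C was -0.06 and no longer called. Relative to that median they were -0.57, -0.14, -0.40 and -0.85. The calls of CCND1, CDKN1C and MYC were also lost with no library block (-0.57, -0.76 and -0.43), that of CDKN1C with cells of 15000 to 60000 UMIs (-0.22), and that of MYC without library 8 (-0.33) or with a mitochondrial maximum of 15% (-0.38). Adjusted p over the alternatives reached 0.137, 0.801 and 0.341, from 4.4e-05, 6.8e-04 and 0.00127.

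The other genes of G1 control were taken from 6 lists with 53 genes, all of which were listed. Over all cells, 11 rose and 9 fell from 1 to 4 dpi of the 53 tested, 37.7% beside 27.6% of all genes, with a median of 0.01 (all genes 0.00). Of the MYC network list 5 of 10 rose and 2 fell, set against the same 27.6% and with no test of the list, with MYCN at 2.11, MXD3 at 1.29, MYCL at 1.15 and MXD4 at 0.74 on the log2 scale, and a median of 0.40. MYCN and MYCL are relatives of MYC, whereas MXD3 and MXD4 compete with it for MAX. In the list of the MuvB core and B-MYB, MYBL2 (1.07) and LIN37 (0.71) rose. Among pocket proteins, E2F and DP factors TFDP2 rose (0.62), and E2F6 (-0.75), E2F7 (-0.66) and E2F4 (-0.35) fell. Of the genes for turnover of cyclins, inhibitors and MYC, 2 of 13 rose, among them CKS1B (0.56), and 3 fell, namely FBXW7 (-0.54), GSK3B (-0.52) and CUL1 (-0.50); FBXW7 and CUL1 belong to a ubiquitin ligase that takes cyclin E and MYC. The remaining lists gave CDK7 (-0.44, 1 of 8) and CDKN2D (0.44, 1 of 4).

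In cells with 0 TOP2A UMIs, 4 of 51 of these genes rose and 5 fell, 17.6% and so near the 16.3% of all genes, with a median of -0.06 (all genes 0.01), and the largest were MYCN (2.14), E2F7 (-1.41) and MYBL2 (1.28). In cells with 3 or more, 5 of 50 rose and 3 fell, beside 9.05% of all genes, with a median of 0.12 (all genes -0.01): MXD3 (1.73), E2F8 (1.49), MYCL (1.46), TFDP2 (0.76) and MYBL2 (0.70) rose, and FBXW7 (-1.37), E2F6 (-0.97) and CUL1 (-0.78) fell. For the G2 and mitosis list, the counts over time were 20 of 20 higher at 4 dpi over all cells (median 1.00), 11 of 20 in the upper class (0.74) and 4 of 20 in cells with 0 (0.60), with none lower, beside 27.6%, 9.05% and 16.3% of all genes. For the S phase list they were 4 higher and 1 lower of 19 (median 0.11), then 1 and 0 (0.06), and 1 and 1 (-0.08), each below these shares of all genes. In the interaction 0 of 52 other G1 genes passed edgeR's test, beside 0.0725% of all genes.

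Between the classes, 14 of 47 tested other G1 genes were higher in cells with 3 or more TOP2A UMIs and 2 were lower, beside 12.4% of all genes called in either direction, with a median of 0.24 against -0.02 over all genes. The list of the MuvB core and B-MYB had 4 of 6 higher, with MYBL2 (2.58) and LIN9 (1.79) first, factors that drive genes of G2 and mitosis. Of pocket proteins, E2F and DP factors 4 of 9 were higher: E2F7 (1.57), RBL1 (1.14), E2F1 (1.12) and TFDP1 (0.65). CKS1B (1.86), FBXO5 (1.22) and SKP2 (1.00) were the higher genes of turnover, 3 of 13, and SKP2 with CKS1B marks CDKN1B for degradation. CDC25A (1.46) and CDK2 (1.05) were those of the cyclin E, CDK2 and CDK activation list, 2 of 7. Of the other CDK inhibitors CDKN2D was higher (0.90) and CDKN2B lower (-0.66), and of the MYC network MAX was lower (-0.48), of 4 and 8 tested; scaled to ERCC, which moves the median of all genes to 0.79, CDKN2B was at 0.14 and not called and MAX at 0.34 and called higher (adjusted p = 0.0236), or -0.65 and -0.45 relative to that median, and of the 47 genes 42 were called higher and 0 lower, beside 83.6% of all genes.

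**Figure D4:**
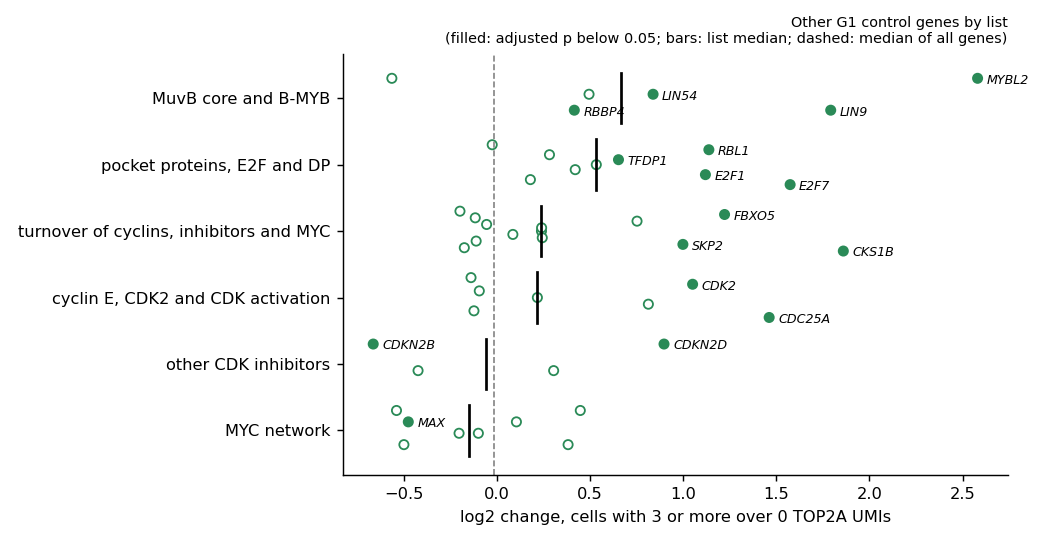
Log2 change between cells with 3 or more and with 0 TOP2A UMIs, within libraries, for the genes of the other G1 lists; filled points passed the test, bars are list medians and the dashed line is the median of all genes (-0.02). MYBL2 (2.58), CKS1B (1.86) and LIN9 (1.79) lie farthest right, and CDKN2B and MAX are the lower filled points; scaled to ERCC both turn positive with the median of all genes, and stay at -0.65 and -0.45 relative to it.

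By the likeness of their log2 level over the 10 sums of library and class, PARVA (Pearson r 0.96), TMC4 (0.96) and TM7SF2 (0.95) were nearest to CDKN1C, the member with the smallest p over time in all cells. Nearest to CCND1, the member with the smallest p between classes, were PCNX2 (0.95), TMEM260 (0.95) and LINC00174 (0.94). The sums come in pairs from the same library, and the genes with the highest r among all genes are a description. Counted genes on the opposite strand that overlap a member had 60 UMIs (TSPAN31) beside 3400 of CDK4, 58 (CCND2-AS1) beside 7207 of CCND2, 35 (GPR19) beside 2575 of CDKN1B, and 222 (RCBTB2) and 9 (LPAR6) beside 1138 of RB1. Whether the counting used the strand of a read is not stated in the labels.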

How the data were processed

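Single SW480 cells from zebrafish xenografts were measured by SORT-seq on 5 plates. The authors read well barcode and UMI in read 1 and mapped read 2 to a human reference by BWA (hg38 in the labels; versions not given), and the deposited values are raw counts, UMIs per gene and well. Of 21283 genes, 15323 occur in the tables of all libraries, and 15077 of these were seen in at least 10 wells (55 are ERCC spike-ins). Wells hold 1 sorted cell each, and no doublet caller was run.

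UMIs of passing cells were summed per library, or per library and TOP2A class, and tested with edgeR 4.0.16 in R 4.3.3 (TMM, filterByExpr, quasi-likelihood test, two-sided, Benjamini-Hochberg over all genes tested, threshold 0.05); "called" means past that threshold. The class comparison and the interaction had the library as a block. Standard errors are those of the fit and SDs are between libraries. The tests were tested on simulated data. Class shares were compared by an exact permutation of the libraries, and intervals are exact (95%, Clopper-Pearson, with scipy 1.17.1).

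Alternatives were DESeq2 1.42.0, RLE normalization, no filter on low counts, more than 3000 genes per cell, a mitochondrial maximum of 15%, cells thinned to 5000 UMIs (11 shallower cells left out; classes from full counts), at least 5 TOP2A UMIs, classes by MKI67, cells of 15000 to 60000 UMIs, no library block, scaling to ERCC, the flow cell as a term, and leaving out each library. Leaving out a library of 4 dpi leaves 1 there, which is then assumed to vary like the others.

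The text names all 10 members, up to 4 called genes of each list with the largest changes, and the 3 genes most like a member; members and lists were chosen with earlier results of these data known. Coordinates are from GENCODE, promoters from RefSeq. Tables and figures were made with Python 3.11.15, pandas 2.3.3, numpy 2.4.6 and matplotlib 3.10.9.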

Additional observations from a re-analysis of the deposited data

Results flagged for a closer look

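CDK6 drew attention because its difference between cells with 3 or more and with 0 TOP2A UMIs differed between the time points by an interaction test (log2 difference 1.32, SE 0.20, edgeR adjusted p = 0.00894). Within libraries the upper class was lower in 3 of 3 at 1 dpi and higher in 2 of 2 at 4 dpi. The call was lost with a mitochondrial maximum of 15% (1.40), with cells of 15000 to 60000 UMIs (1.15) and without library 11 (1.04). The upper class also differed between the time points in TOP2A level, mitochondrial share and depth, and the part of these in the result was not tested beyond the alternatives run. Among cells with 0 TOP2A UMIs, those of library 11 had the lowest median depth (15865 UMIs) and the most MKI67 (25.9 CPM). The part of this in the result was not tested either beyond those alternatives.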

How the results depend on the processing

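Of 710 values of members under alternatives, 611 kept direction and side of the threshold, 26 newly passed it, 38 no longer passed it, and 35 turned direction, of which 33 belong to members not called and 2, those of CCND1 and MYC scaled to ERCC, to called members. With at least 5 TOP2A UMIs the class with 0 holds the same cells, so its 10 values could not change. The causes of the differences listed here were not tested, except that thinning, narrower classes and left-out libraries leave fewer counts. In all cells, 1119 genes were called with cells thinned to 5000 UMIs. In cells with 0 TOP2A UMIs, 1000 genes were called by DESeq2, 542 with thinning, 969 with cells of 15000 to 60000 UMIs, and 750 to 1567 with a library left out; with classes by MKI67, 5 members were called, among 1728 of 11752 genes. In cells with 3 or more, 405 genes were called by DESeq2, 105 with a mitochondrial maximum of 15%, 72 with thinning, 532 with at least 5 TOP2A UMIs, 113 with cells of 15000 to 60000 UMIs and 260 to 931 with a library left out. There 1 member, CDK6, was called with the maximum of 15%, with thinning and with the range of depth, and 1 to 6 with a library left out. Between the classes, 809 genes were called by DESeq2, 773 with the maximum of 15%, 343 with thinning, 632 with no library block and 808 to 1251 with a library left out; members called were 5 with classes by MKI67 (1670 of 10353 genes), 0 with no block, 8 scaled to ERCC (all higher; 8467 of 10127 genes) and 2 to 5 with a library left out. In the interaction, 37 genes were called with no filter on low counts, 3 by DESeq2, 1 with the maximum of 15%, 48 with classes by MKI67, 0 with the range of depth and 1 to 31 with a library left out, and 0 members were called with the maximum of 15% and with the range of depth and 0 to 1 with a library left out.

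Members that turned direction over time in all cells were CCND1 with the maximum of 15% (0.018) and with a library left out (-0.27 to 0.0083), and RB1 with thinning (-0.059). In cells with 0 they were CCND1 with the maximum of 15% (0.11), thinning (0.086), classes by MKI67 (0.11) and a library left out (-0.22 to 0.14), CDKN1B with the maximum of 15% (0.043) and CCND2 with a library left out (-0.10 to 0.46). In cells with 3 or more it was CCND3 with classes by MKI67 (-0.26) and a library left out (-0.25 to 0.74). Between the classes they were CCND1 (0.22), CCND2 (0.65) and MYC (0.39) scaled to ERCC, CCND2 (0.068) and CDKN1B (-0.080) with classes by MKI67, CDKN1B with the range of depth (-0.11), CCND3 with more than 3000 genes (-0.025), the maximum of 15% (-0.11), at least 5 TOP2A UMIs (-0.10) and a library left out (-0.15 to 0.14), and CDK6 with a library left out (-0.13 to 0.29). In the interaction they were CDK4 with the range of depth (-0.10), CCND2 with at least 5 TOP2A UMIs (-0.12) and the range of depth (-0.13), RB1 with thinning (-0.078) and a library left out (-0.16 to 0.53), and MYC with the maximum of 15% (-0.057), thinning (-0.049), at least 5 TOP2A UMIs (-0.16), classes by MKI67 (-0.12) and a library left out (-0.10 to 0.22).

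With thinned cells some members were too rarely counted to be tested: CCND3 in both classes, between them and in the interaction, CDKN1C and CDKN2C in the upper class and between the classes, and RB1 in the upper class. DESeq2 gave no adjusted p for CCND3 in the interaction. The number of libraries, 3 and 2, limits all comparisons, and sparse counts limit CCND3, CDKN1C and CDKN2C most.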
